A study of Mus musculus with 11 samples.

Results

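The genes described here encode the protein subunits of the mitochondrial ribosome. They were taken from the counted genes by symbol, as every Mrpl or Mrps followed by a digit with pseudogenes left out, which gave 78 of 33188 genes. The rule rests on the symbol alone. By class they comprised 30 large subunit proteins with a bacterial counterpart, 21 large subunit proteins found only in mitochondria, 16 small subunit proteins with a bacterial counterpart, 10 small subunit proteins found only in mitochondria, and Mrps36, which keeps an Mrps name but is known as a component of the alpha-ketoglutarate dehydrogenase complex and not of the ribosome. They lay on 17 chromosomes of GRCm38, with 11 of them on chromosome 11 and 0 on X or Y.

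Whole testes of C57BL/6J mice at postnatal day 5 were used for stranded poly-A RNA sequencing, in 11 libraries of 4 genotypes. WT gave 2 libraries. Dnmt3C KO (3 libraries) carried the constitutive Dnmt3CKO/KO mutation, which removes the DNA methyltransferase that silences young retrotransposon promoters in male germ cells. Nrf1 cKO (3 libraries) carried 1 floxed and 1 deleted Nrf1 allele with Ddx4-Cre, so that germ cells lost both copies and other cells kept 1, and the samples' labels give its genotype as Nrf1KO/KO. dKO (3 libraries) carried both mutations. Littermates served as controls where possible, and nothing in the labels says which libraries came from the same litter. The samples' titles name germ cells, but the extraction protocol used the whole dissected organ and the cell type field lists somatic cells beside spermatogonia, so the libraries are treated here as whole testis. Somatic cells thus keep a floxed copy beside the deleted one, so the Nrf1 comparisons below are of a whole organ in which germ cells lost the gene and the other cells 1 copy of it, and fewer germ cells and less RNA per germ cell cannot be told apart.

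Mitochondrial ribosomes translate the few mRNAs of the mitochondrial genome, which encode core subunits of the respiratory chain. All of their proteins are encoded in the nucleus, made in the cytosol and imported, and their genes are housekeeping genes that every testicular cell uses. NRF1, nuclear respiratory factor 1, is a transcription factor whose binding is blocked by DNA methylation and whose known targets include many nuclear genes for mitochondrial proteins. Its site is a GC-rich palindrome that contains CpG. The question the 4 genotypes put to these genes was whether their mRNA differed when Nrf1, Dnmt3C or both were missing.

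The NRF1 motif was looked for in the RefSeq promoters of GRCm38.p6, from 250 bases before to 50 after a gene's start. A promoter was found for 69 of the 78 genes (75 promoters). Mrpl4, Mrpl13, Mrpl15, Mrpl19, Mrpl38, Mrpl54, Mrps28, Mrps34 and Mrps35 had none in the table. The motif GCATGCGC, or its reverse complement GCGCATGC, stood in the promoters of 8 of the 69 genes (11.6%), against 3.05% of all 27025 genes with a promoter in that table and 5.21% of the 13490 of these that were tested for expression. The 8 were Mrpl9, Mrpl10, Mrpl17, Mrpl22, Mrpl32, Mrpl33, Mrpl39 and Mrps18b. The sites of 4 of these genes numbered 2 or more, counting both strands. When the 2 strands' motifs overlap they form the full palindrome, as in Mrpl9, Mrpl32 and Mrpl39. A looser form, GCGC, any 2 bases and GCGC, which the full palindrome also matches, stood in 14 of the 69 (20.3%), against 7% of all genes in the table and 12.7% of those tested. A match shows the letters only, and binding was not measured here. The upstream parts of 5 promoters are shown, with the NRF1 motif in capitals. Mrps18b and Mrpl10 lay at opposite ends of the Nrf1 comparison described below, and Mrpl9, Mrpl32 and Mrpl39 held the full palindrome. Each is written 5′ to 3′ on the strand of the gene.
Mrps18b, chr17:35916630-35916689, minus strand: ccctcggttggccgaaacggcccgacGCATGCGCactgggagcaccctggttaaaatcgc
Mrpl10, chr11:97041422-97041481, plus strand: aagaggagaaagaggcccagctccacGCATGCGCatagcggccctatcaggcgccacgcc
Mrpl9, chr3:94443298-94443327, plus strand: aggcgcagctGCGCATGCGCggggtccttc
Mrpl32, chr13:14613105-14613134, minus strand: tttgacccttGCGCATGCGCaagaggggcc
Mrpl39, chr16:84735350-84735379, minus strand: aaggagaggcGCGCATGCGCccccgcgtgg

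Counted from the RefSeq start, the first base of the motif lay 223 bases before it in Mrps18b, where another motif began 28 bases after it, and 134 bases before it in Mrpl10. In Mrpl32, which held the most, the motifs began 87, 85, 66 and 22 bases before the start. GENCODE M21 places some gene ends elsewhere. The RefSeq start of Mrps18b lies 51 bases outside the GENCODE gene, so that by that annotation both of its motifs precede the gene, and the start of Mrpl32 lies 128 bases inside it, so that all 4 motifs fall within the GENCODE gene. Motifs of other common promoter factors were searched on both strands in the same windows. CCGGAAG, bound by ETS factors, stood in 26 of the 69 genes (37.7%), in 9.93% of all genes in the table and in 16.9% of those tested. AAGATGGCG, bound by YY1, stood in 8 (11.6%), 1.64% and 2.82%.

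The depth was 26063590 to 39365841 counts per library. The 78 genes took between 0.304% and 0.383% of them, with 433 to 3993 counts for a gene in a library, so that all 78 were tested in every comparison. The germ cell markers, 24 genes, summed to 479.6 to 582.1 CPM (counts scaled to a common library size) in WT, 474.8 to 828.6 in Dnmt3C KO, 169.7 to 339.4 in Nrf1 cKO and 222.1 to 496.4 in dKO, with 1 of the 24 at 0 in 1 Nrf1 cKO library. The 15 Sertoli cell markers summed to 4823 to 8926 CPM over all libraries, and all were detected. Counts over the whole targeted genes do not check the labels, since somatic cells keep a copy of Nrf1 and a mutant Dnmt3c mRNA can still be counted. Nrf1 was at 57 and 58 CPM in WT, 44.9, 55.5 and 50.3 CPM in Dnmt3C KO, 56.1, 52.2 and 57.9 CPM in Nrf1 cKO and 56.8, 60.8 and 60.8 CPM in dKO. Nrf1 cKO overlapped WT, while each library labelled dKO was higher than each labelled Dnmt3C KO, the opposite of what the labels alone would give. By immunofluorescence at this age, the authors report that germ cells of Nrf1 cKO and dKO testes lacked nuclear NRF1 protein. Dnmt3c was at 4.15 and 4.87 CPM in WT and 3.01 to 4.94 CPM in the Dnmt3C-mutant libraries. The genotypes below are those of the labels.

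In WT testes the mean level of the 78 genes was between 14.8 and 85.1 CPM, with a median of 40.9 CPM. Per kilobase of exon, the scale on which genes can be compared, the median was 18 CPM per kb. The highest was Mrpl52, a large subunit protein found only in mitochondria, at 56.6 and 76.3 CPM per kb in the 2 libraries. It was followed by Mrps21, a small subunit protein with a bacterial counterpart, at 46 and 62.5 CPM per kb, and Mrpl28, a large subunit protein with one, at 42.2 and 56.3 CPM per kb. This order held in each library, and the ranges of neighbours overlapped, while that of Mrpl28 ended just below that of Mrpl52. The lowest were Mrpl47 at 4.01 and 5.1, Mrps35 at 4.25 and 5.09, and Mrpl1 at 4.57 and 5.18 CPM per kb, which overlapped likewise. Exon length was the union of all annotated exons, which lowers the value of genes with long alternative ends.

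Each gene varied little over the 11 libraries. Its highest library was at most 2.16 times its lowest, and in 47 of 78 genes the ratio was under 1.5. The lows and highs were shared. WT replicate 1 was the lowest library for 37 of the 78 genes and dKO replicate 2 for 16, whereas a Dnmt3C KO library was the highest for 16, 25 and 7 genes (replicates 1, 2 and 3) and WT replicate 2 for 14. The 2 WT libraries therefore bracketed most of the range, with 73 of the 78 genes lower in replicate 1 than in replicate 2.

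Averaged over the 78 genes, the mean log2 CPM was 5.14 and 5.45 in WT, 5.45, 5.52 and 5.48 for Dnmt3C KO, 5.32, 5.42 and 5.25 for Nrf1 cKO, and 5.42, 5.22 and 5.26 for dKO. All 3 Dnmt3C KO libraries lay above all 6 libraries labelled Nrf1 cKO or dKO, the higher WT library was level with the lowest Dnmt3C KO library, and the 2 WT libraries bracketed these 6. As mean ± SD this was 5.30 ± 0.22 in WT (n = 2), 5.49 ± 0.04 in Dnmt3C KO (n = 3), 5.33 ± 0.09 in Nrf1 cKO (n = 3) and 5.30 ± 0.11 in dKO (n = 3). The 89 cytosolic ribosomal protein genes, which share no subunit with the mitochondrial ribosome, were at 8.67 and 9.19 in WT, 9.05, 9.21 and 9.13 for Dnmt3C KO, 8.94, 9.03 and 8.56 for Nrf1 cKO, and 8.99, 8.65 and 8.79 for dKO. Over the 11 libraries the 2 averages had a correlation of r = 0.932 (rho = 0.936), given as a description, since both rest on the same libraries, depths and scaling. Among the cell type markers r was 0.651 for Leydig cells (rho = 0.518), 0.448 for macrophages, 0.34 for red blood cells, 0.228 for germ cells, 0.11 for endothelial cells, 0.0944 for peritubular cells and -0.46 for Sertoli cells.

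**Figure D1:**
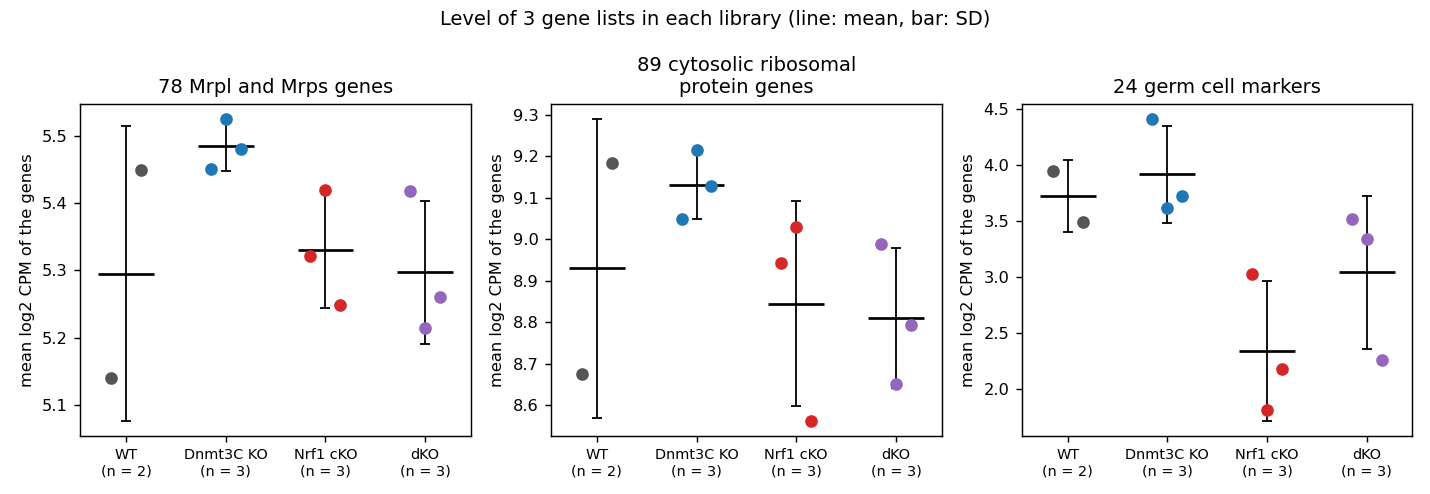
Mean log2 CPM of the Mrpl and Mrps genes, of the cytosolic ribosomal protein genes and of germ cell markers in each library (points) by genotype, with the mean (line) and SD (bar). The 2 WT libraries stand far apart in both ribosomal protein panels, at 5.14 and 5.45 for the Mrpl and Mrps genes, while the germ cell markers are lowest in Nrf1 cKO.

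Deletion of Nrf1 in germ cells with Dnmt3C intact (Nrf1 cKO against WT) left none of the 78 genes past the threshold. edgeR called 0 of them at adjusted p under 0.01, as it called 0% of the 21296 features tested, and the smallest adjusted p among the 78 was 0.943. At unadjusted p under 0.05, 0 were higher and 0 lower, where the background was 1.53% higher and 4.22% lower. DESeq2 also gave 0 of the 78 at either level, and its share of all features is not given here. With their own test, the authors report several protein-coding genes as differentially expressed in this comparison, more of them lower than higher. The 0% of features called by edgeR departs from that report, so it does not show that no gene differed. The reason for the departure was not tested. The median log2 fold change of the 78 was 0.04, with a range from -0.28 to 0.28, beside a median of 0.00 over all features. Its direction turned with 1 library, to -0.11 without WT replicate 1 and 0.19 without WT replicate 2. The median standard error of a gene was 0.18, so single differences of this size were not detectable here. With each library's trend on mRNA length removed, an alternative described below, 1 was higher at unadjusted p under 0.05, where 3.29% of all genes were. Cell type markers, of which edgeR called 0, were not level in this comparison. Germ cell markers had a median of -1.26, with 18 of 24 lower at unadjusted p under 0.05, Sertoli markers of 0.47 (3 of 15 higher), endothelial markers of 0.65 (4 of 7 higher) and red blood cell genes of -0.85 (6 of 6 below 0, 1 lower).

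The lowest log2 fold change belonged to Mrps18b, which encodes one of the mitochondrial relatives of bacterial S18. Its level was 30.9 and 37.5 CPM in WT and 29.8, 29.2 and 25.8 CPM in Nrf1 cKO. No Nrf1 cKO library reached the lower WT library, with a log2 fold change of -0.28 ± 0.17 (SE; edgeR adjusted p = 0.943). Mrpl1, the protein of the L1 stalk, was at 19.6 and 22.3 CPM in WT and at 18.8, 16.8 and 16.8 CPM in Nrf1 cKO, again without overlap, at -0.27 ± 0.19 (edgeR adjusted p = 0.955). At the other end were Mrpl36, a small zinc-binding protein of the large subunit, and Mrps6 of the small subunit. Mrpl36 was at 27 and 35.3 CPM in WT and 35.3, 39.2 and 39.6 CPM in Nrf1 cKO, with a value of 0.28 ± 0.18 (edgeR adjusted p = 0.943), and its lowest Nrf1 cKO library was level with the higher WT library. For Mrps6 the values were 19.9 and 21.6 CPM in WT and 24.9, 25.9 and 23.5 CPM in Nrf1 cKO, at 0.25 ± 0.18 (edgeR adjusted p = 0.956). Without WT replicate 1 and without WT replicate 2, in that order, the value of Mrps18b was -0.39 and -0.14, that of Mrpl1 -0.33 and -0.17, and that of Mrpl36 0.12 and 0.49.

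In testes without Dnmt3C, deletion of Nrf1 (dKO against Dnmt3C KO) went with lower values for most of the 78 genes, none of which passed the threshold. Of the 78, 69 had a log2 fold change below 0, and their median was -0.19 with a range from -0.53 to 0.15, beside a median of 0.02 over all 20783 features. edgeR called 0 at adjusted p under 0.01, as for all features (0%), and the smallest adjusted p was 0.675. At unadjusted p under 0.05, 23 were lower and 0 higher, against a background of 4.08% lower and 3.1% higher. DESeq2 gave 20 lower, 0 higher and 0 called. In 29 genes every dKO library lay below every Dnmt3C KO library, which held for 6.89% of all features, and in 0 did every one lie above (6.7% of all features). The count of 23 rested on each library: it was 8 without Dnmt3C KO replicate 1, 15 without replicate 2 and 13 without replicate 3, and 34, 13 and 10 without dKO replicates 1, 2 and 3. With all 4 genotypes in one fit it was 14. The share of all features was not computed for these other fits or for DESeq2, so 4.08% is not their background.

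The lowest values were those of Mrps14 and Mrpl35, small and large subunit proteins with bacterial counterparts. Mrps14 was at 61.3, 47.5 and 43.7 CPM in Dnmt3C KO and 43.5, 28.3 and 33.9 CPM in dKO, a log2 fold change of -0.53 ± 0.18 (edgeR adjusted p = 0.675). The highest dKO library was just under the lowest Dnmt3C KO library. Mrpl35 was at 47.9, 35.2 and 37.9 CPM in Dnmt3C KO and 30.4, 24.1 and 33.7 CPM in dKO, at -0.46 ± 0.16 (edgeR adjusted p = 0.675). Mrps18b was next, at 41.9, 38.1 and 39.4 CPM in Dnmt3C KO and 34.3, 26.7 and 26.2 CPM in dKO, at -0.45 ± 0.13 with the same adjusted p, and its groups did not overlap. The highest log2 fold changes were 0.15 ± 0.11 for Mrps2 (edgeR adjusted p = 0.733) and 0.07 ± 0.12 for Mrpl3 (0.879). Mrps2 encodes a small subunit protein with a bacterial counterpart, and Mrpl3 a core protein of the large subunit near its catalytic centre.

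Other lists also had medians away from 0, with 0 genes called in each. The cytosolic ribosomal protein genes had a median log2 fold change of -0.27, with 89 of 89 below 0 and 18 lower at unadjusted p under 0.05. All 24 germ cell markers were below 0 as well, with a median of -0.83 and 10 lower at unadjusted p under 0.05. Somatic markers lay on both sides of 0. Leydig markers had a median of -0.14, with 7 of 10 below 0, and 2 lower and 1 higher at unadjusted p under 0.05. Endothelial markers had a median of -0.12 (5 of 7 below 0) and red blood cell genes of -0.32 (4 of 6 below 0), with 0 genes at that level. The 8 macrophage markers were all below 0, with a median of -0.50 and 1 lower at that level, and summed to 228.2 to 242.7 CPM in Dnmt3C KO and 100.4 to 264.7 CPM in dKO. The 7 peritubular markers were all below 0, at a median of -0.30 with 1 lower, and summed to 1953 to 2698 CPM and 1620 to 2020 CPM. The 15 Sertoli markers had a median of 0.29, with 4 higher and 0 lower, and summed to 4948 to 6443 CPM and 5811 to 6571 CPM. Fold changes also followed mRNA length. Over the genes with an annotated coding mRNA, the median log2 fold change was -0.13 in the shortest of 5 equal length groups (up to 1511 bases), -0.02, 0.04 and 0.08 in the next groups, and 0.15 in the longest (from 4352 bases), and 13% of the shortest group were lower at unadjusted p under 0.05 against 0.722% of the longest. The 78 genes have short mRNAs, with a median of 1224 bases, and 49 of them were in the shortest group. When each library's trend on mRNA length was removed before the edgeR fit, an alternative added after seeing the data, the median of the 78 was -0.03, beside 0.04 over all 15221 genes in that fit, and 7 rather than 23 were lower at unadjusted p under 0.05, where 2.94% of all genes were. The same genes with the trend kept gave -0.20 and 23, where 5.13% of all genes were lower, so the smaller set of genes did not move these values. Those 7 were Mrpl32, Mrpl35, Mrpl47, Mrps5, Mrps14, Mrps16 and Mrps18b. Mrpl35, with an mRNA of 3721 bases, stayed at -0.51 ± 0.16, while Mrpl20, with 494 bases, went from -0.41 ± 0.12 to -0.10 ± 0.11. What part cell content or mRNA length had in the difference was not tested beyond these values.

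**Figure D2:**
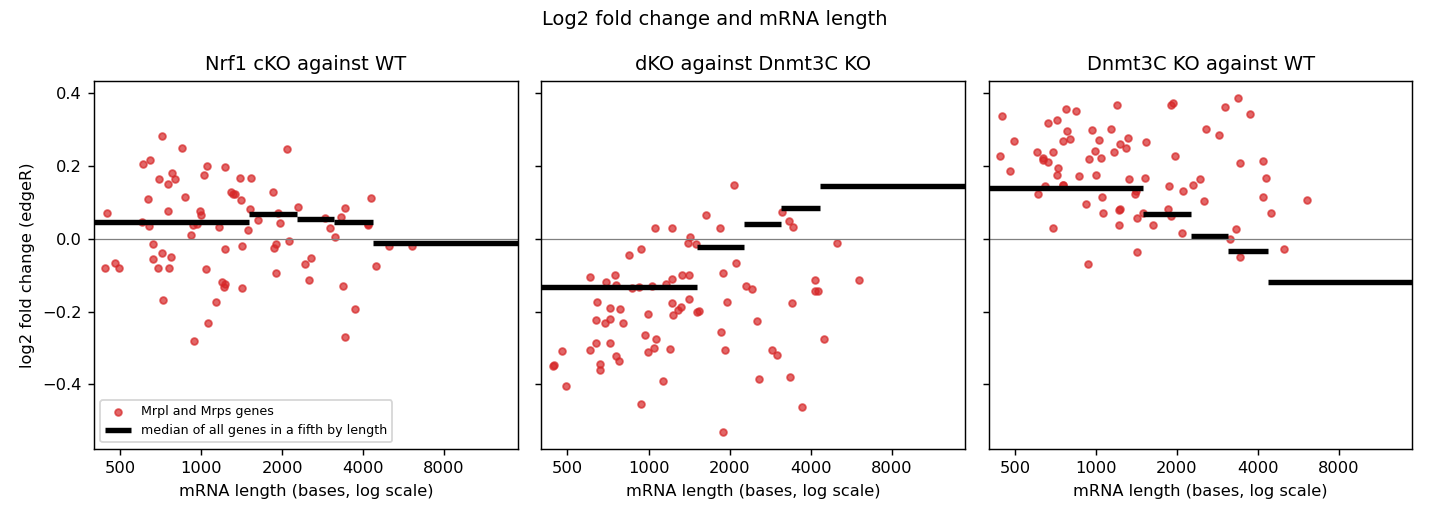
Log2 fold change (edgeR) of the Mrpl and Mrps genes (points) against mRNA length on a log scale, with the median of all genes in each of 5 length groups (black bars). For dKO against Dnmt3C KO the bars climb from -0.13 in the shortest group to 0.15 in the longest, and for Dnmt3C KO against WT they descend from 0.14 to -0.12.

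**Figure D3:**
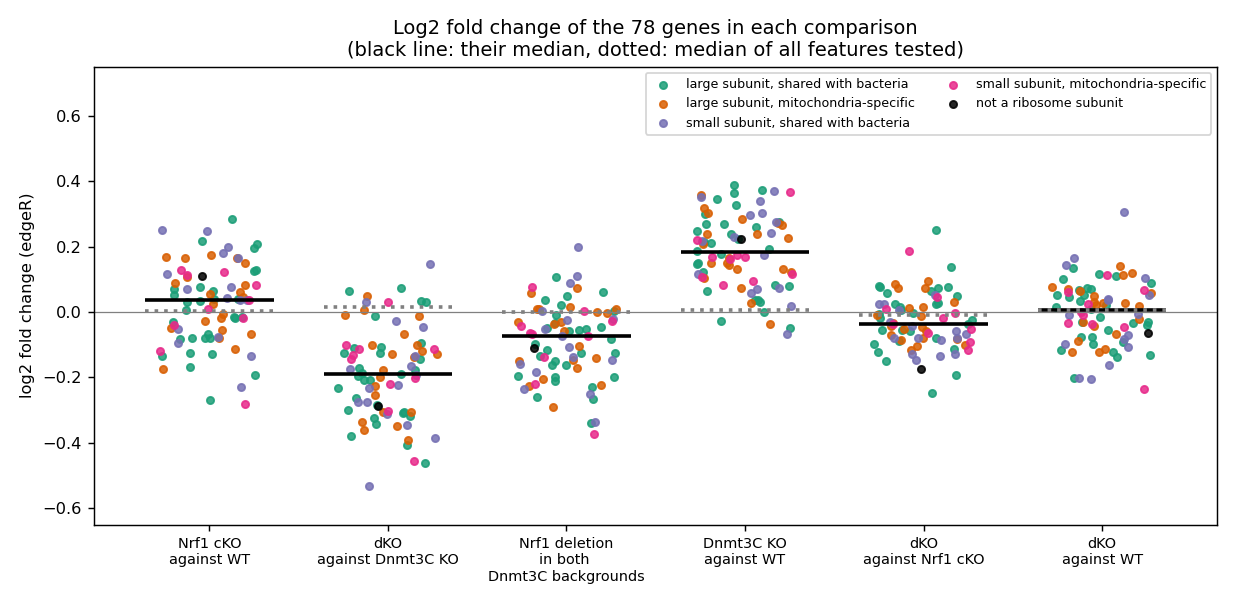
Log2 fold change (edgeR) of each of the 78 genes in 6 comparisons, coloured by class, with their median (black line) and the median of all features tested (dotted line). The median is 0.18 for Dnmt3C KO against WT and -0.19 for dKO against Dnmt3C KO, and between -0.07 and 0.04 in the other comparisons.

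With both Dnmt3C backgrounds in one additive fit of 11 libraries, Nrf1 deletion called 0 of the 78 genes at adjusted p under 0.01 by edgeR, where 0.00443% of 22594 features passed. At unadjusted p under 0.05, 8 were lower and 1 higher, against a background of 4.32% lower and 3.55% higher. DESeq2 called 0 and gave 7 lower and 1 higher. The median log2 fold change was -0.07, with 60 of 78 below 0, beside 0.00 over all features. It was -0.14 without WT replicate 1 and -0.051 without dKO replicate 3. Over the 15862 genes with an mRNA length the median of the 78 was -0.10, beside 0.01 over all of these. Of the 78, 12 were lower and 1 higher at unadjusted p under 0.05, where 5.39% and 3.64% of all these genes were. With the length trend removed in the same genes the median of the 78 was 0.0002, beside 0.05 over all. Then 6 were lower and 5 higher (4.29% and 7.17% of all genes). The 78 thus lay nearer to all genes but still below them. Germ cell markers had a median of -1.05 without that removal, with 18 of 24 lower, and Sertoli markers of 0.32, with 5 of 15 higher. The medians were -0.59 for red blood cell genes (6 of 6 below 0), -0.21 for peritubular (6 of 7) and -0.16 for macrophage markers (7 of 8). For endothelial markers it was 0.31 (0 of 7 below 0) and for Leydig markers 0.02 (4 of 10 below 0, 1 higher). In no gene did the 6 libraries labelled Nrf1 cKO or dKO lie wholly below the other 5 (0.451% of features) or wholly above them (0.279%).

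Mrps18b, at chr17:35910379-35916389 on the minus strand in GENCODE M21 (GRCm38), had the lowest value in this fit. It averaged 34.2 ± 4.62 CPM in WT, 39.8 ± 1.95 in Dnmt3C KO, 28.2 ± 2.16 in Nrf1 cKO and 29.1 ± 4.52 in dKO (SD). In each background all libraries labelled as Nrf1-deleted lay below all others, and only across backgrounds did dKO replicate 1 exceed WT replicate 1. Its log2 fold change was -0.37 ± 0.10 (edgeR adjusted p = 0.377), and -0.24 ± 0.07 (adjusted p = 0.323) with the length trend removed. Its promoter holds the NRF1 motif printed above. The other members of the low end carry no such motif. Mrpl35 (-0.34 ± 0.12, edgeR adjusted p = 0.518), Mrps14 (-0.34 ± 0.14, 0.596), Mrpl46 (-0.29 ± 0.12, 0.589), Mrpl47 (-0.27 ± 0.12, 0.603) and Mrpl20 (-0.26 ± 0.11, 0.59) made up the 6 lowest. Mrpl46 is a large subunit protein found only in mitochondria, and Mrpl47 is the relative of bacterial L29. With the length trend removed Mrpl20 was at -0.05 ± 0.08 and Mrpl46 at -0.18 ± 0.09, while Mrpl35 (-0.37), Mrps14 (-0.29) and Mrpl47 (-0.29) stayed near their values.

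Of the 6 highest, Mrps2 stood first. It was at 37.7 and 38.8 CPM in WT, 36.4, 37.5 and 42 CPM in Dnmt3C KO, 48.8, 42.7 and 45.4 CPM in Nrf1 cKO, and 39.1, 45.8 and 43.9 CPM in dKO. Nrf1 cKO and dKO were higher on average, but the lowest dKO library was below the highest Dnmt3C KO library. Its log2 fold change was 0.20 ± 0.08 (edgeR adjusted p = 0.596). Mrps11, whose bacterial counterpart lies near the mRNA exit channel, followed at 0.11 ± 0.09 (edgeR adjusted p = 0.751). Mrpl10, which anchors the stalk that recruits translation factors, was at 0.11 ± 0.09 (0.752), Mrps6 at 0.09 ± 0.10 (0.825), Mrps27, a pentatricopeptide repeat protein of the small subunit, at 0.08 ± 0.08 (0.81), and Mrpl43, a large subunit protein found only in mitochondria, at 0.07 ± 0.10 (0.867). Mrpl10 was at 57.5 and 69.9 CPM in WT, 63.1, 72.6 and 66.4 CPM in Dnmt3C KO, 73.5, 76.9 and 69.6 CPM in Nrf1 cKO and 66.3, 72 and 68.5 CPM in dKO, with the groups overlapping. With the length trend removed the high end moved up, to 0.22 ± 0.08 for Mrps2, 0.24 ± 0.08 for Mrps11, 0.22 ± 0.08 for Mrpl10, 0.24 ± 0.09 for Mrps6, 0.12 ± 0.07 for Mrps27 and 0.16 ± 0.10 for Mrpl43 (edgeR adjusted p from 0.343 to 0.556). Mrpl10 carries the same 8 motif letters as Mrps18b and lay at the opposite end of the list.

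**Figure D4:**
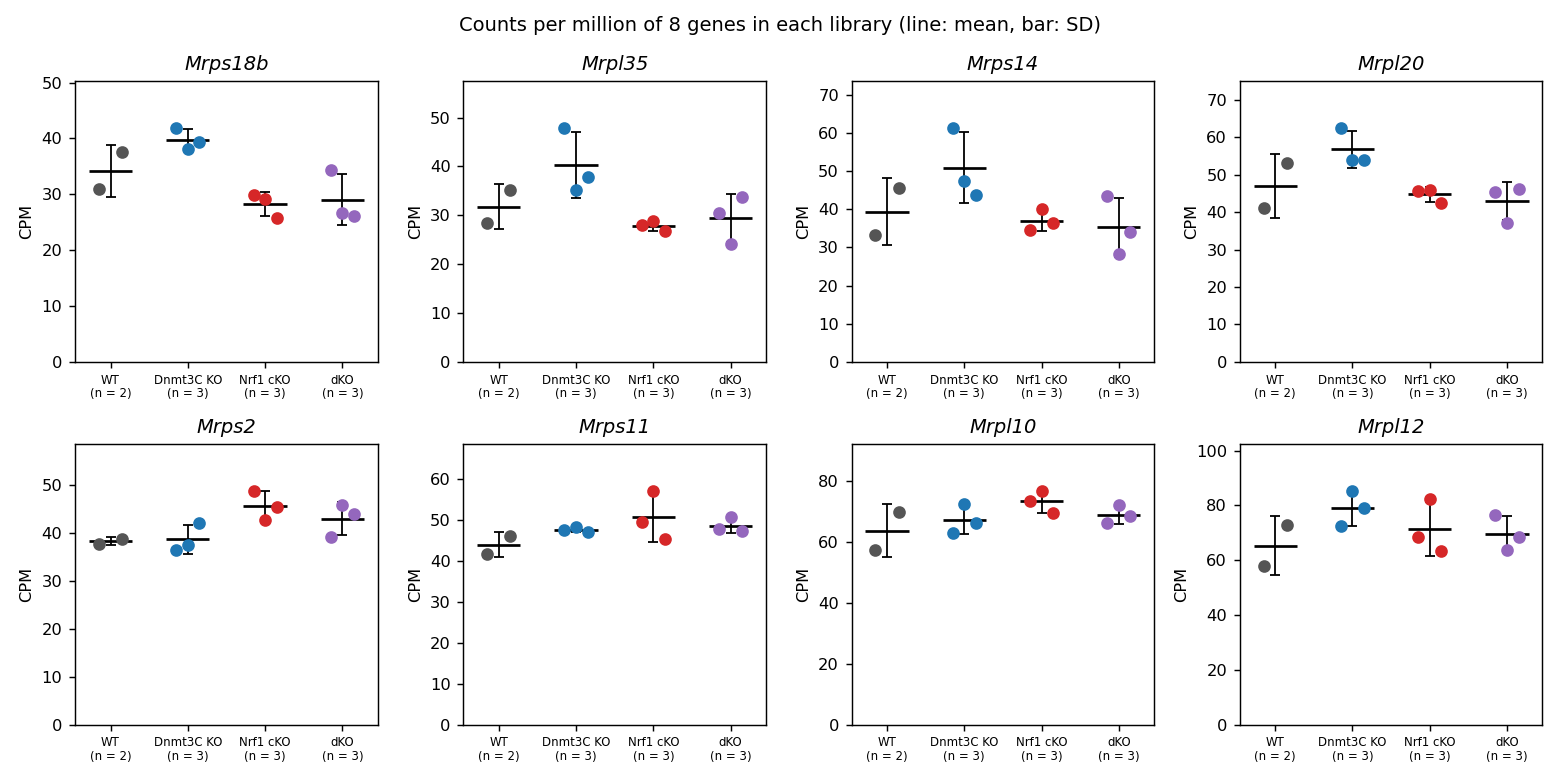
CPM of 8 genes in each library (points) by genotype, with mean (line) and SD (bar). The Nrf1 cKO and dKO libraries of Mrps18b lie below the WT and Dnmt3C KO libraries of their own background, and those of Mrpl10 and Mrpl12 overlap with them.

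Genes picked for their role in the ribosome gave small values in the same fit, with edgeR adjusted p between 0.624 and 0.999. Mrpl12, the stalk protein that also binds the mitochondrial RNA polymerase, was at 57.7 and 72.9 CPM in WT, 72.4, 85.4 and 79 CPM in Dnmt3C KO, 68.4, 82.3 and 63.4 CPM in Nrf1 cKO and 76.5, 63.6 and 68.4 CPM in dKO. Its log2 fold change was -0.05 ± 0.11. Mrpl11, at the base of that stalk, was at -0.14 ± 0.11. Mrps12, a protein of the decoding centre, was at -0.05 ± 0.10, and Mrps34, a small subunit protein found only in mitochondria, at -0.06 ± 0.10. Mrpl3 and Mrpl44, the latter with a fold like that of RNase III, were at 0.05 ± 0.09 and -0.001 ± 0.08. Mrps22 and Mrps16, both known from inherited disease of mitochondrial translation, were the lowest of this set, at -0.22 ± 0.12 and -0.23 ± 0.11. Mrps36, not a ribosome subunit, was at -0.11 ± 0.12. When the length trend was removed, the signs of Mrpl12, Mrps12, Mrps34, Mrpl44 and Mrps36 turned, Mrps22 went to -0.10 ± 0.09 and Mrpl3 to 0.02 ± 0.09, and Mrps16 was at -0.24 ± 0.11.

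Whether the Nrf1 difference depended on Dnmt3C was tested as an interaction over the 11 libraries. edgeR called 0 of the 78 at adjusted p under 0.01, as it did 0% of 22594 features, and the smallest adjusted p was 0.895. At unadjusted p under 0.05, 3 were lower and 0 higher (background 1.87% lower and 3.68% higher), and DESeq2 gave the same counts with 0 called. The 3 were Mrpl36, Mrpl49 and Mrps12, named here after their values were seen, at -0.48 ± 0.22, -0.37 ± 0.16 and -0.40 ± 0.17 (edgeR adjusted p = 0.895 for each). The interaction values leaned one way, with 72 of 78 below 0 and a median of -0.22 beside -0.01 over all features. The cytosolic ribosomal protein genes had a median of -0.25, with 84 of 89 below 0. Both WT libraries bore on this median, which was -0.10 without replicate 1 and -0.41 without replicate 2. The 8 macrophage markers were all below 0 in this test too, at a median of -0.75 with 2 lower at unadjusted p under 0.05. The medians were -0.63 for endothelial (7 of 7 below 0, 1 lower), -0.43 for Leydig (9 of 10 below 0, 1 lower), -0.39 for peritubular (7 of 7 below 0) and -0.10 for Sertoli markers (9 of 15 below 0), and 0.42 for germ cell (3 of 24 below 0) and 0.60 for red blood cell genes (0 of 6 below 0, 1 higher), with 0 called. With the length trend removed the median was -0.12, with 0 genes at unadjusted p under 0.05 (2.14% lower and 1.61% higher over all genes). With the trend kept in the same genes the median was -0.21, with 1 lower (1.9% of all genes).

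Loss of Dnmt3C alone (Dnmt3C KO against WT) went with higher values. Of the 78 genes 74 had a log2 fold change above 0, with a median of 0.18 and a range from -0.07 to 0.39, beside a median of 0.01 over all 21664 features. edgeR called 0 at adjusted p under 0.01 (0% of all features), and at unadjusted p under 0.05, 2 were higher and 0 lower (background 2.56% higher and 2.86% lower). DESeq2 gave the same 2 and 0, with 0 called. In 26 genes the Dnmt3C KO libraries all lay above both WT libraries, which held for 9.78% of features, and in 0 did they all lie below (11.5% of features). The median was 0.05 without WT replicate 1 and 0.38 without WT replicate 2, so its size was set by which WT library was kept. By mRNA length, the median of all genes was 0.14 in the shortest length group and -0.12 in the longest, and with the length trend removed the median of the 78 was 0.09, with 4 higher and 0 lower at unadjusted p under 0.05 (2.23% and 2.01% of all genes). Other lists had medians away from 0 as well, with 0 genes called in each. The cytosolic ribosomal protein genes had a median of 0.17, with 1 of 89 below 0. The 6 red blood cell genes had a median of -1.24, all 6 lower at unadjusted p under 0.05, and summed to 659.1 and 2128 CPM in WT and 545.3 to 789.4 CPM in Dnmt3C KO, so that the WT libraries differed most. The 8 macrophage markers had a median of 0.42, with 0 below 0 and 3 higher, and summed to 160.6 and 197.9 CPM in WT and 228.2 to 242.7 CPM in Dnmt3C KO. Germ cell markers had a median of 0.21, with 3 of 24 higher. Leydig markers had one of 0.19 (2 of 10 below 0, 2 higher) and peritubular markers of 0.20 (1 of 7 below 0, 0 higher). For endothelial markers it was 0.02 (3 of 7 below 0, 0 higher) and for Sertoli markers -0.003 (8 of 15 below 0, 1 higher). The part of these lists in the difference was not tested.

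The 2 genes at unadjusted p under 0.05 were Mrpl11 and Mrpl32. Mrpl11 was at 45.7 and 54 CPM in WT and 67.1, 64.6 and 61.9 CPM in Dnmt3C KO, at 0.37 ± 0.14 (edgeR adjusted p = 0.893). For Mrpl32, a zinc-binding large subunit protein that is matured by the m-AAA protease, the levels were 22.4 and 29.7 CPM in WT and 36.2, 32 and 32.3 CPM in Dnmt3C KO, at 0.36 ± 0.16 (edgeR adjusted p = 0.893). The groups did not overlap in either gene. Mrpl47 had the highest log2 fold change, 0.39 ± 0.18 (edgeR adjusted p = 0.893), at 17.7 and 22.5 CPM in WT and 30.9, 23.6 and 24.4 CPM in Dnmt3C KO. The lowest were Mrps15 at -0.07 ± 0.18 and Mrpl1 at -0.05 ± 0.16 (edgeR adjusted p = 0.993 and 0.994), both of which overlapped between the groups.

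Between both Nrf1-deleted genotypes (dKO against Nrf1 cKO) edgeR called 0 of the 78 genes (0% of 20381 features), and 0 were higher or lower at unadjusted p under 0.05 (background 1.94% and 0.868%), with DESeq2 giving 0 throughout. The median was -0.04, with 50 of 78 below 0, beside -0.01 over all features, and it was -0.086 without dKO replicate 1 and 0.028 without Nrf1 cKO replicate 2. Mrpl14, which the silencing factor Malsu1 binds, was at 37.8, 40.2 and 32 CPM in Nrf1 cKO and 37.1, 26 and 29.2 CPM in dKO, the lowest log2 fold change at -0.25 ± 0.16. Mrpl34 was at -0.19 ± 0.12. Mrpl1 (0.25 ± 0.17) and Mrps22 (0.19 ± 0.14) were highest, each with an edgeR adjusted p = 1.

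For dKO against WT edgeR also called 0 (0% of 21488 features), with 0 higher and 0 lower at unadjusted p under 0.05 (background 0.544% and 1.19%) and 0 by DESeq2. With the length trend removed 1 was higher, where 1.09% of all genes were. Without that removal the median was 0.01, equal at this precision to that of all features, with 38 of 78 below 0. It was -0.15 without WT replicate 1 and 0.17 without WT replicate 2. Mrps18b (-0.23 ± 0.18) and Mrps10 (-0.21 ± 0.19) were lowest and Mrps6 (0.31 ± 0.16) and Mrps2 (0.16 ± 0.15) highest, with an edgeR adjusted p = 1 for each. Mrps6 was at 26.4, 25.3 and 25.2 CPM in dKO, above both WT libraries. The comparisons share libraries, so a gene that recurs in several of them was not measured independently each time.

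The classes of subunit gave similar values. In dKO against Dnmt3C KO the median was -0.19 for the 30 large subunit proteins with a bacterial counterpart, -0.14 for the 21 found only in mitochondria, -0.21 for the 16 small subunit proteins with a counterpart and -0.14 for the 10 without. Genes lower at unadjusted p under 0.05 numbered 10, 5, 5 and 2 in these classes, besides Mrps36. In Nrf1 cKO against WT the class medians were 0.00, 0.05, 0.06 and 0.02 in the same order, and in Dnmt3C KO against WT 0.20, 0.17, 0.22 and 0.17. In each comparison the range of every class overlapped the others.

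Genes with and without the NRF1 motif had similar medians. In Nrf1 cKO against WT the median log2 fold change was 0.03 for the 8 with the motif (range -0.28 to 0.20) and 0.04 for the 61 without (range -0.27 to 0.28). In dKO against Dnmt3C KO the medians were -0.21 and -0.20, and 3 of 8 and 20 of 61 were lower at unadjusted p under 0.05, where 10.1% of all 694 tested genes with the motif and 4.43% of the 12171 without were. With both backgrounds in the fit they were -0.11 (range -0.37 to 0.11) and -0.10 (range -0.34 to 0.20). For the 14 genes with the looser motif the median in that fit was -0.08, with 0 at unadjusted p under 0.05. Over all genes tested, 8.11% of the 703 with the strict motif were lower at unadjusted p under 0.05 in that fit and 2.56% higher, against 4.58% and 4.58% of the 12806 without, with 0 and 1 called. A few symbols cover more than 1 counted gene, and these were counted separately here. These are descriptions and the difference was not tested.

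**Figure D5:**
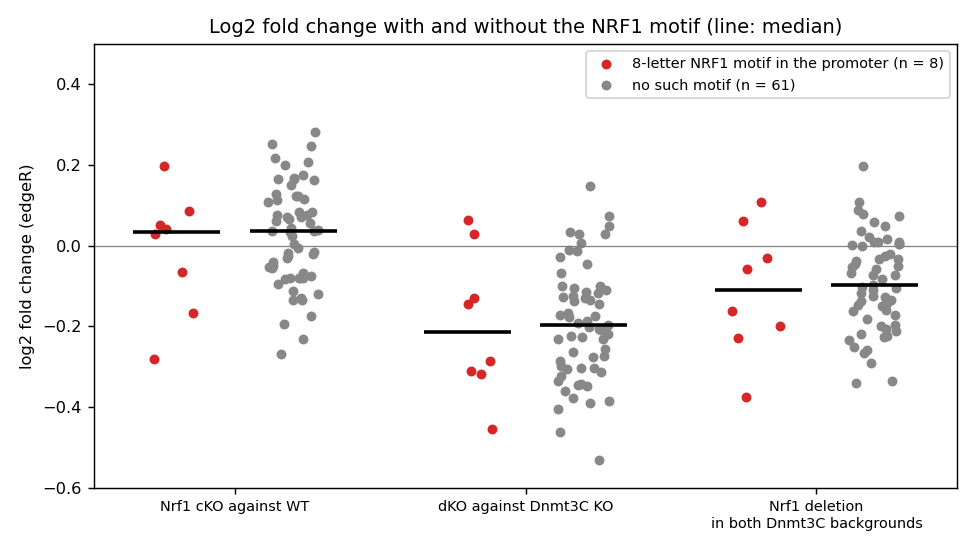
Log2 fold change (edgeR) of the genes with the 8-letter NRF1 motif in their promoter (red, n = 8) and without it (grey, n = 61) in 3 comparisons, with the median of each (line). The medians differ by little, for example 0.03 and 0.04 in Nrf1 cKO against WT, and the red points spread over most of the range of the grey ones.

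The other genes of mitochondrial translation were examined from fixed lists, with 0 called by edgeR in each list and comparison. Mitoribosomal proteins with other names (5 of 6 tested) resembled the 78 genes, with a median of -0.13 in dKO against Dnmt3C KO and 2 lower at unadjusted p under 0.05, and of -0.13 in the fit over both backgrounds. In the latter fit Chchd1, of the small subunit, was lowest at -0.23 ± 0.14 and Gadd45gip1, of the large subunit, highest at 0.14 ± 0.12. Assembly factors (25 of 25 tested) had medians of -0.06 and -0.02 in those comparisons, with 0 genes at unadjusted p under 0.05 in either. Malsu1, which keeps the subunits apart during assembly, was lowest at -0.18 ± 0.11 and Noa1, a GTPase, highest at 0.20 ± 0.12.

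Translation factors (14 of 15 tested) had medians of 0.04 and 0.00, also with 0 genes at unadjusted p under 0.05. Mrrf, the ribosome recycling factor, was lowest at -0.17 ± 0.10 and 2810006K23Rik highest at 0.22 ± 0.11. Mitochondrial aminoacyl-tRNA synthetases and the subunits of the glutamine amidotransferase (20 of 20 tested) had medians of -0.03 and 0.02. In the fit over both backgrounds 1 of them was lower and 1 higher at unadjusted p under 0.05. Qrsl1, an amidotransferase subunit, was lowest at -0.33 ± 0.12 (edgeR adjusted p = 0.513). It was at 17 and 19.8 CPM in WT, 20.6, 17.9 and 19.8 CPM in Dnmt3C KO, 13.9, 13.3 and 15.1 CPM in Nrf1 cKO and 19.4, 13.7 and 14.6 CPM in dKO. None of the 3 Nrf1 cKO libraries reached the lower WT library, and dKO overlapped Dnmt3C KO. Aars2, the alanyl-tRNA synthetase, was highest at 0.28 ± 0.13 (edgeR adjusted p = 0.627).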

How the data were processed

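Stranded poly-A reads of 11 whole-testis libraries were aligned by the authors with STAR 2.7.3a to GRCm38 and counted with TEtranscripts on GENCODE genes and transposable element (TE) subfamilies. The authors deposited raw counts per pair of genotypes beside their own DESeq2 1.44.0 comparison (fold changes, p-values), of which only the counts were used here; 0 columns of other samples were present. A library's counts were the same in every table, 0 of 683848 repeated values differed, and joining gave 33188 genes and 1088 TE subfamilies. A deposited table of TE copies in TPM was not used here. Multi-mapping reads were shared among features, so genes with close copies are less certain, and 5 Mrpl or Mrps pseudogene rows were left out.

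The main test was the edgeR 4.0.16 quasi-likelihood F test in R 4.3.3 (filterByExpr, TMM, glmQLFit) on the libraries compared, or on all 11 for the additive and interaction fits, with Benjamini-Hochberg adjustment over all genes and TE subfamilies tested and a threshold of 0.01. The standard error was taken as the absolute log2 fold change over the root of F. CPM use TMM factors over the 11 libraries, and their logs add a prior count of 1. mRNA length is the median of a gene's coding transcripts in GENCODE M21, while the authors used a later release, and 18389 genes had one. No 2 replicates matched within sampling noise (chi-square per degree of freedom 17.62 to 61.76), so none was counted as a copy. Labels do not say whether replicates are separate animals, so p-values measure the spread between these samples. Counts are of reads without molecular identifiers. The main edgeR fit and the DESeq2 test were tried on simulated data for every comparison, and the length-trend fit for dKO against Dnmt3C KO. The other alternatives were not. Promoter sequences are from RefSeq (GRCm38.p6), and 70 of the 75 used had bases shortly after the start in the gene's transcripts, on the same strand.

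Genotypes come from the labels. The members, lists and tests were chosen with earlier results of these data known. Genes are named by rule: any called, the 6 highest and 6 lowest in the additive fit, the 2 highest and 2 lowest of each pair of genotypes, the 3 highest and 3 lowest WT levels per kb, and genes fixed by role. Genes named outside it are said to be so or belong to a count at unadjusted p under 0.05. As alternatives, the DESeq2 1.42.0 Wald test, its size factors, a replicate block, an adjusted p under 0.05, no filter, genes without TE subfamilies, all 4 genotypes in one fit, leaving out each library, and, added after seeing the data, removal of each library's trend on mRNA length (spline offsets) and the same genes with the trend kept were run.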

Additional observations from a re-analysis of the deposited data

How the results depend on the processing

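No alternative called any of the 78 genes at adjusted p under 0.01, nor did adjusted p under 0.05. The replicate block gave 0 calls in every comparison and medians of 0.08, -0.19, -0.07, 0.19, -0.04, 0.03 and -0.25 (in the order Nrf1 cKO against WT, dKO against Dnmt3C KO, both backgrounds, Dnmt3C KO against WT, dKO against Nrf1 cKO, dKO against WT, interaction). Titles share replicate numbers, nothing says that a number marks a litter or batch, and the third Dnmt3C KO and dKO libraries carry other numbers in their descriptions. Deviations of same-numbered libraries from their group means correlated at -0.233 to 0.221, and those of other numbers at -0.258 to 0.299. In such small groups the deviations depend on each other, and those of the WT libraries mirror each other exactly. The check therefore cannot decide whether the numbers paired the samples. Under the block 26 genes were lower in dKO against Dnmt3C KO at unadjusted p under 0.05.

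Removing the length trend moved the median of dKO against Dnmt3C KO to -0.034 and its count from 23 to 7, whereas the same genes with the trend kept gave -0.20 and 23; the single fit of 4 genotypes gave 14, and leaving out 1 library 8 to 34. Leaving out 1 library gave medians of 0.052 to 0.38 for Dnmt3C KO against WT, -0.11 to 0.19 for Nrf1 cKO against WT, -0.15 to 0.17 for dKO against WT and -0.41 to -0.10 for the interaction, with WT replicates at the ends, and -0.14 to -0.051 for both backgrounds, -0.28 to -0.14 for dKO against Dnmt3C KO and -0.086 to 0.028 for dKO against Nrf1 cKO. Near 0, signs turned in the fit over both backgrounds. With the length trend removed Mrpl12 was at 0.050, Mrps12 at 0.11, Mrps34 at 0.078, Mrpl44 at 0.086 and Mrps36 at 0.082. Mrpl44 was at 0.0017 with DESeq2's size factors and 0.0034 by DESeq2. Leaving out 1 library gave ranges of -0.14 to 0.0019 for Mrpl12, -0.10 to 0.0072 for Mrps12, -0.012 to 0.079 for Mrpl3 and -0.040 to 0.042 for Mrpl44. In dKO against Dnmt3C KO Mrpl3 ranged from -0.042 to 0.14, and in Dnmt3C KO against WT Mrps15 from -0.30 to 0.24 and Mrpl1 from -0.13 to 0.059. The looser NRF1 motif stood in 20.3% of genes rather than 11.6%. The cause of these shifts, and of the length trend itself, was not tested. Only 2 WT libraries, which stood apart, limit every comparison with WT.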
